A study of Mus musculus with 175 samples.

Results

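The expression of 10 genes of JAK-STAT5 signalling and its negative feedback was examined in single progenitors of the mouse fetal liver. The genes were Jak2, Stat5a, Stat5b, Stat3, Cish, Socs1, Socs2, Socs3, Pim1 and Sh2b3, chosen by symbol from the 49585 mouse features that were counted. Cells were sorted from E14.5 livers of Runx1 reporter embryos, in which human CD4 on the cell surface reports transcription from the P2 promoter of Runx1 and GFP reports the P1 promoter. The genotype is given as P1-GFP::P2-hCD4/+ in the protocol of the labels and as P2-GFP::P2-hCD4/+ in their genotype field, on C57BL/6 crossed with ICR. Every population carried these same alleles, so no wild-type or Runx1-deficient cell enters the comparisons. The fractions were immunophenotypic megakaryocyte-erythroid progenitors (MEPs; Lin- Sca1- Kit+ CD16/32low CD34-) and common myeloid progenitors (CMPs; the same but CD34+), all CD41- CD150+. Each was divided by human CD4 into P2- MEPs (57 cells), P2+ MEPs (48), P2- CMPs (27) and P2+ CMPs (43), of which 56, 47, 27 and 42 passed the read filters. The labels call the CMPs low and high, which were read as P2- and P2+, and the subtype label of 1 P2- CMP names an MEP.

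JAK2 is the tyrosine kinase bound to the receptors for erythropoietin, the interleukin-3 family and other cytokines that sustain blood progenitors. Ligand binding activates JAK2, which phosphorylates the receptor and the STAT5 factors, and phosphorylated STAT5 enters the nucleus and binds DNA. Among the genes it is known to turn on are Cish and other SOCS genes, whose proteins dampen the receptor, and Pim1, which encodes a survival kinase. STAT activity is set by phosphorylation, which RNA does not measure, so the values below are levels of transcripts only.

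The livers of 2 litters were pooled before sorting, so each population is 1 sample, its cells are not replicates and no difference between populations could be tested. Levels are given as pooled CPM, the reads of a gene per 1000000 reads on mouse genes after the cells of each population were pooled. Where 4 values are listed without names, they follow the order P2- MEPs, then P2+ MEPs, then P2- CMPs, then P2+ CMPs. Intervals are at 95%. Those of levels and ratios cover counting error only, since reads without molecular identifiers are not independent molecules. Those of shares of cells cover the drawing of cells from 1 pool. Overlap of intervals, or its lack, is no test between populations. A kept cell had 295064 to 1540631 reads on mouse genes, and the median per population ran from 520540 in the P2- MEPs to 804632 in the P2+ CMPs. Shares of cells with a read were therefore counted after each cell was thinned to 100000 reads. The sort genes followed the gates for Cd34, at 0.0327, 13.05, 274.3 and 541 CPM, and for Kit, at 259.3 to 369.4 CPM. Transcripts of Itga2b, which encodes CD41, were present at 32.02 to 103 CPM although the cells were sorted as CD41-, and Slamf1, which encodes CD150, was at 8.23 CPM in the P2- MEPs against 37.2 to 97.2 CPM elsewhere. Runx1 itself was at 23.4, 56.98, 71.5 and 156 CPM.

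STAT5 and STAT3 dimers bind the palindromic motif TTCNNNGAA, which was searched in RefSeq promoter windows of GRCm38.p6 that span 250 bases before to 50 bases after a start site. The motif reads the same on both strands. Windows were found for all genes but Socs2, 12 windows in all, and 2 of them held the motif. These were the windows of Cish and Socs3, both genes of feedback inhibitors of the pathway, and they are shown because they hold the motif. The capitals mark the motif, each stretch is written 5′ to 3′ on the strand of its gene, and the positions are chr9:107296654-107296683 on the plus strand for Cish and chr11:117969501-117969530 on the minus strand for Socs3.
Cish: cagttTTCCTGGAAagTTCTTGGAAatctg
Socs3: gaaaccagccTTCTTAGAAgggaggggggg
The Cish stretch holds 2 copies, at positions 1 and 12 from the RefSeq start, in a stretch that GENCODE vM21 annotates as an untranslated exon of transcript Cish-201. The single Socs3 copy begins at position -154, within an intron of transcript Socs3-202. Of 32851 mouse promoter windows, 8.30% held the motif at least once and 0.457% at least 2 times. A match describes these letters and is no evidence of binding, and the windows without it say nothing of sites elsewhere.

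Jak2 (chr19:29251828-29313080, plus strand) was highest in the P2+ MEPs and lowest in the P2+ CMPs. Its pooled level was 40.9 CPM (interval 38.7 to 43.3) in the P2- MEPs, 68.9 CPM (66.1 to 71.9) in the P2+ MEPs, 40.9 CPM (37.98 to 43.9) in the P2- CMPs and 26.4 CPM (24.8 to 28.2) in the P2+ CMPs. Among cells, the lowest value was 0 in every population and the highest was 171, 283.6, 263.05 and 131 CPM, so the ranges overlapped from 0 upward and the highest cells of the other populations lay above every P2+ CMP. The median cell was at 26.2, 34.8, 9.33 and 3.18 CPM in the same order. A read was found in 34 of the 56 P2- MEPs, 32 of the 47 P2+ MEPs, 12 of the 27 P2- CMPs and 20 of the 42 P2+ CMPs. P2+ MEPs were 1.68-fold above P2- MEPs (log2 ratio 0.75, interval 0.65 to 0.85), whereas P2+ CMPs were 1.55-fold below P2- CMPs (log2 ratio -0.63, interval -0.77 to -0.49). The widest gap was between the P2+ populations, with CMPs 2.61-fold below MEPs (log2 ratio -1.38, interval -1.49 to -1.27). P2- MEPs and P2- CMPs did not differ beyond counting error (log2 ratio 0.00, interval -0.14 to 0.13).

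The share of Jak2 among the JAK kinases followed the same order. JAK1, JAK3 and TYK2 are the other kinases of the family, and JAK3 pairs with the common gamma chain of interleukin receptors. On a scale of CPM per kilobase of exon, Jak2 held 32.2% of the JAK transcripts in the P2- MEPs, 36.9% in the P2+ MEPs, 21.6% in the P2- CMPs and 12.2% in the P2+ CMPs. Jak3 held 8.21%, 15.6%, 26.5% and 28.5%, and Jak1 was the leading kinase in every population but P2+ MEPs, where Jak2 was. The ratio of Jak2 to Jak1 reads, which does not depend on the total, was 0.486 (interval 0.454 to 0.520), 0.771 (0.729 to 0.816), 0.384 (0.352 to 0.418) and 0.173 (0.162 to 0.186). Both terms differed between the P2+ populations, since Jak1 was at 89.4 CPM in the P2+ MEPs and 153 CPM in the P2+ CMPs.

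**Figure D1:**
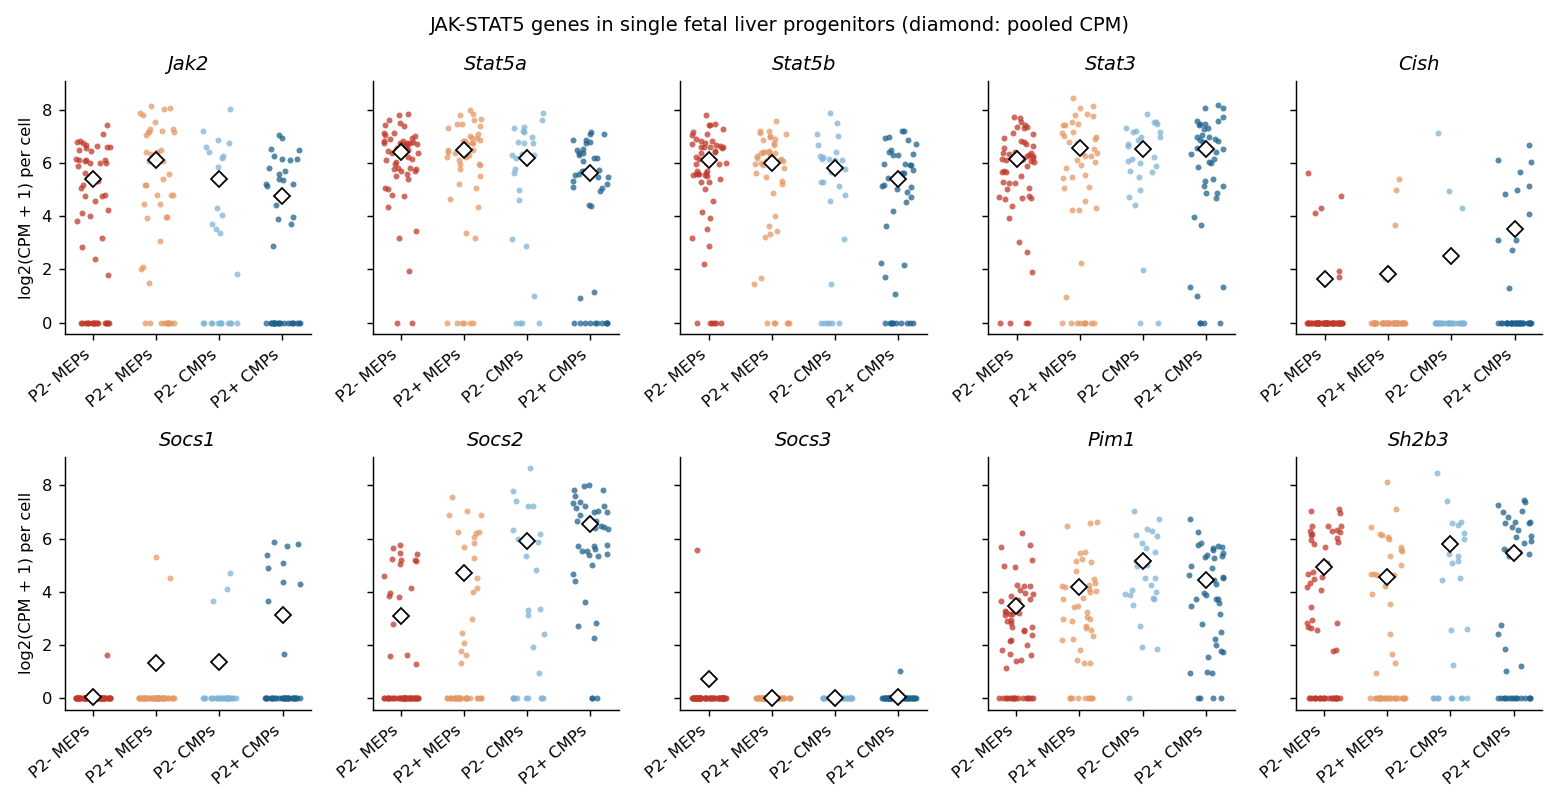
Each point is 1 cell, with its log2(CPM + 1) on the vertical axis and its population on the horizontal axis, in a panel for each of the 10 genes, and open diamonds mark log2 of the pooled CPM + 1. The highest cells for Jak2, Stat5a and Stat5b were lower in the P2+ CMPs than in the other populations, reads of Cish and Socs1 came from few cells, and Socs2 had reads in 39 of the 42 P2+ CMPs before thinning against 18 of the 56 P2- MEPs.

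The STAT5 genes were read in most cells of every population, and their levels were highest in MEPs. STAT5A and STAT5B are close paralogs that act on largely the same sites, and their genes lie beside each other and beside Stat3 on chromosome 11 (Stat5b 100780731-100850724, Stat5a 100859351-100885169, Stat3 100885098-100939540). Stat5a was at 85.0, 89.8, 72.2 and 48.7 CPM. Stat5b was at 68.8, 63.5, 54.7 and 41.5 CPM. Of the 4 comparisons run, only that between the P2+ populations gave STAT5 differences over 1.5-fold, where CMPs were 1.84-fold below MEPs for Stat5a (log2 ratio -0.88, interval -0.97 to -0.80) and 1.53-fold below for Stat5b (log2 ratio -0.61, interval -0.71 to -0.52). P2+ over P2- log2 ratios were 0.08 for Stat5a and -0.12 for Stat5b within MEPs, and -0.57 and -0.40 within CMPs. Stat5a reads were found in 52 of 56, 40 of 47, 22 of 27 and 30 of 42 cells, and Stat5b reads in 48, 38, 21 and 30 of them. Reads of both were found in 45 of the 56 P2- MEPs, 32 of the 47 P2+ MEPs, 17 of the 27 P2- CMPs and 21 of the 42 P2+ CMPs, and reads of neither in 1, 1, 1 and 3 cells.

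Stat3, which encodes the main factor downstream of the interleukin-6 type receptors, did not share the order of the STAT5 genes. It was at 69.95 CPM (interval 67.0 to 73.0) in the P2- MEPs and between 90.0 and 94.3 CPM in the other populations. The P2+ and P2- CMPs did not differ beyond counting error (log2 ratio -0.03, interval -0.12 to 0.05), nor did the P2+ CMPs and P2+ MEPs (log2 ratio -0.07, interval -0.14 to 0.00). STAT5 reads therefore stood in a changing ratio to Stat3 reads. For Stat5a and Stat5b together the ratio was 2.20 (interval 2.09 to 2.32) in the P2- MEPs, 1.63 (1.55 to 1.70) in the P2+ MEPs, 1.38 (1.30 to 1.47) in the P2- CMPs and 1.002 (0.955 to 1.05) in the P2+ CMPs. These intervals did not overlap between any populations. With equal weight for every cell, chosen after seeing the data, P2+ MEPs were at 1.75 and P2- CMPs at 1.48, and the order was the same.

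Words of 70 bases, the read length after trimming, were compared with the transcripts of other genes, because such reads cannot be assigned to a single gene. Stat5a shared 5.65% of its words with other genes and Stat5b 7.62%, nearly all with each other. Cish shared 8.17% with Gm17040 and Gm17041, Pim1 7.42% with Gm26885, Socs2 3.47%, mostly with Gm9847, and Stat3 0.0304%. The others shared 0. Exon positions that overlap another gene made up 11.5% of Cish, 14.5% of Pim1, 2.06% of Sh2b3, 1.01% of Stat5a and 0.756% of Stat3. Counting ignored strand, so reads at those positions were set aside as ambiguous, and the levels of these genes are uncertain to that extent.

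Among the 10 genes, the SOCS family held the largest differences. Its members bind phosphorylated receptors or JAK kinases and shut the signal off, and CISH and SOCS2 are the ones most closely tied to STAT5. Socs2 (chr10:95385362-95417180, minus strand) was at 7.51 CPM (interval 6.57 to 8.55) in the P2- MEPs, 25.2 CPM (23.5 to 26.99) in the P2+ MEPs, 58.6 CPM (55.1 to 62.2) in the P2- CMPs and 92.1 CPM (89.0 to 95.3) in the P2+ CMPs. The lowest cell was at 0 in every population and the highest at 52.6, 191, 399.7 and 256.5 CPM. The median cell was at 0, 0, 7.76 and 84.2 CPM. Socs2 reads were found in 13 of the 56 P2- MEPs (23.2%, Clopper-Pearson interval 12.98% to 36.4%), 15 of the 47 P2+ MEPs (31.9%, 19.1% to 47.1%), 14 of the 27 P2- CMPs (51.9%, 31.9% to 71.3%) and 37 of the 42 P2+ CMPs (88.1%, 74.4% to 96.0%). The intervals of neighbouring populations overlapped except between P2- and P2+ CMPs, which describes these pools and is no test of a difference. The level in cells with reads was ordered alike, with medians of 27.8, 43.98, 56.96 and 87.3 CPM before thinning. In log2 ratios, P2+ MEPs were 1.74 (interval 1.53 to 1.96) above P2- MEPs, P2+ CMPs 0.65 (0.55 to 0.75) above P2- CMPs, P2- CMPs 2.96 (2.76 to 3.17) above P2- MEPs, and P2+ CMPs 1.87 (1.76 to 1.98) above P2+ MEPs. A single cell gave 27.3% of the Socs2 reads of the P2- CMPs, and without the highest cell of each population the CMP ratio was 0.96.

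Cish (chr9:107296026-107302784, plus strand) was read in few cells but most often in the P2+ CMPs. Its pooled level was 2.16 CPM (interval 1.67 to 2.74) in the P2- MEPs, 2.57 CPM (2.04 to 3.19) in the P2+ MEPs, 4.69 CPM (3.75 to 5.79) in the P2- CMPs and 10.6 CPM (9.59 to 11.7) in the P2+ CMPs. The cells with reads numbered 5 of 56, 2 of 47, 2 of 27 and 10 of 42, and the highest cell was at 48.8, 41.3, 137 and 101 CPM. The MEP populations did not differ beyond counting error (log2 ratio 0.25, interval -0.24 to 0.74), and that ratio was -0.16 without the highest cells. P2+ CMPs were 2.26-fold above P2- CMPs (log2 ratio 1.18, interval 0.84 to 1.53). That value rested on few cells, since 1 cell gave 53.5% of the P2- CMP reads. Without the highest cell of each population the log2 ratio was 1.86, and with equal weight for every cell it was 0.52, under the 2-fold limit. Between the P2+ populations CMPs were 4.14-fold above MEPs (log2 ratio 2.05, interval 1.70 to 2.41), and the log2 ratio was 3.03 without the highest cells.

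Socs1 (chr16:10782240-10785536, minus strand), which inhibits JAK kinases directly, was nearly absent from P2- MEPs at this depth. A single read was counted there, and the pooled levels were 0.0327, 1.49, 1.58 and 7.81 CPM. Before thinning these reads came from 1, 2, 3 and 10 cells. Between P2+ and P2- MEPs the log2 ratio was 5.51 with an interval of 2.96 to 10.8, and 36 of the 47 reads of the P2+ MEPs came from 1 cell. Without the highest cells the P2- MEPs had no read left and the log2 ratio was at least 1.85, counting 3 reads over the population. In CMPs the P2+ cells were 4.94-fold above the P2- cells (log2 ratio 2.30, interval 1.75 to 2.91), and without the highest cells the log2 ratio was 3.01. Socs1 reads after thinning were in 0 of 56, 2 of 47, 3 of 27 and 8 of 42 cells. The upper limits were 6.38%, 14.5%, 29.2% and 34.1%, so these shares are imprecise.

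Socs3 (chr11:117966079-117970047, minus strand), the SOCS gene most closely tied to STAT3 and the interleukin-6 receptor, was at or near 0. All 20 reads of the P2- MEPs came from 1 cell, at 46.1 CPM, the P2+ CMPs had 1 read, and P2+ MEPs and P2- CMPs had 0. With a mean of 0.122 reads per cell it was under the minimum of 1 and is left out of the counts of genes past 2-fold. Socs4, Socs5, Socs6 and Socs7 are the rest of the family. Per kilobase, Socs4 led the family in the P2- MEPs with 47.4% of its transcripts and in the P2+ MEPs with 38.9%, Socs5 led in the P2- CMPs with 36.6%, and Socs2 led in the P2+ CMPs with 29.8%. Cish, Socs1, Socs2 and Socs3 together are the lower bands in the plot of family make-up, and Socs2 alone went from 5.99% in the P2- MEPs to 17.2%, 20.96% and 29.8% in the other populations.

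**Figure D2:**
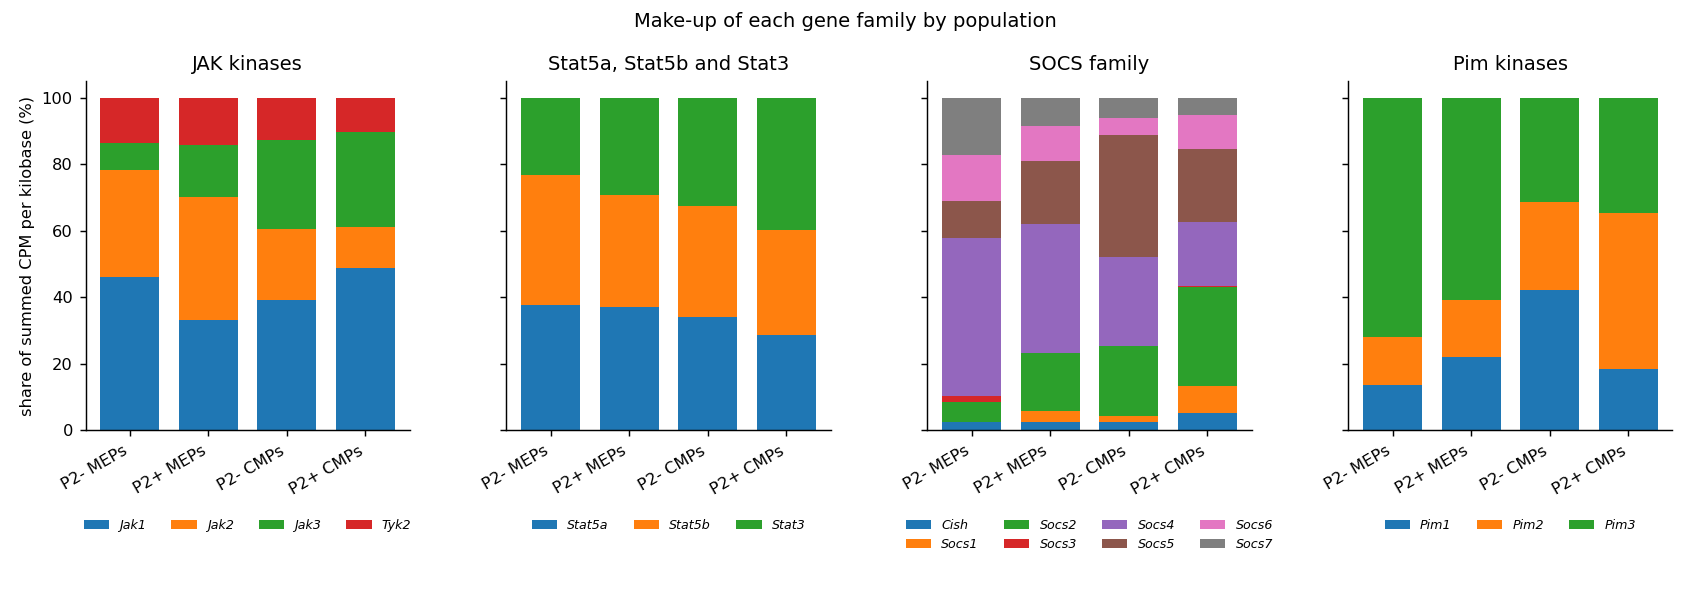
Stacked bars give the share of each gene in the summed CPM per kilobase of its family, in percent, for the JAK kinases, Stat5a, Stat5b and Stat3, the SOCS family and the Pim kinases in the 4 populations. Jak2 narrows from 36.9% in the P2+ MEPs to 12.2% in the P2+ CMPs, Stat3 widens from 23.2% in the P2- MEPs to 39.7% in the P2+ CMPs, and Pim3 takes 72.0% of the Pim transcripts in the P2- MEPs.

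Pim1 (chr17:29490753-29496112, plus strand) was highest in the P2- CMPs. It was at 9.97 CPM (interval 8.88 to 11.1) in the P2- MEPs, 17.04 CPM (15.6 to 18.5) in the P2+ MEPs, 35.1 CPM (32.5 to 37.9) in the P2- CMPs and 20.6 CPM (19.2 to 22.2) in the P2+ CMPs, with reads in 26 of 56, 26 of 47, 21 of 27 and 28 of 42 cells. Median cells were at 4.90, 8.42, 21.7 and 14.3 CPM, and the highest cells at 72.3, 97.1, 130 and 106 CPM, so the populations overlapped. P2+ MEPs were 1.71-fold above P2- MEPs (log2 ratio 0.77, interval 0.57 to 0.98) and P2+ CMPs 1.70-fold below P2- CMPs (log2 ratio -0.77, interval -0.92 to -0.61), while P2- CMPs were 3.52-fold above P2- MEPs (log2 ratio 1.82, interval 1.62 to 2.02). The related survival kinase Pim2 had another order, at 8.63, 10.9, 18.3 and 43.2 CPM, and was 2.36-fold higher in P2+ than in P2- CMPs. Per kilobase, Pim3 led in both MEP populations, Pim1 led in the P2- CMPs with 42.2% and Pim2 in the P2+ CMPs with 46.7%.

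Sh2b3 (chr5:121815488-121837646, minus strand) encodes LNK, an adaptor that restrains JAK2 signalling at cytokine receptors. It was at 29.7 CPM (interval 27.8 to 31.7), 22.6 CPM (21.02 to 24.4), 54.5 CPM (51.2 to 57.97) and 42.6 CPM (40.5 to 44.8), and was read in 29 of 56, 19 of 47, 16 of 27 and 23 of 42 cells. P2+ cells were lower in both compartments, with log2 ratios of -0.39 (interval -0.53 to -0.25) in MEPs and -0.35 (-0.47 to -0.24) in CMPs. The CMP value changed sign, to 0.01 with DESeq2 size factors and 0.08 without the highest cells, and 1 cell gave 37.1% of the P2- CMP reads. CMPs were above MEPs by log2 ratios of 0.88 (interval 0.74 to 1.01) among P2- cells and 0.91 (0.78 to 1.04) among P2+ cells. Without the highest cells these were 0.41 and 1.18.

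**Figure D3:**
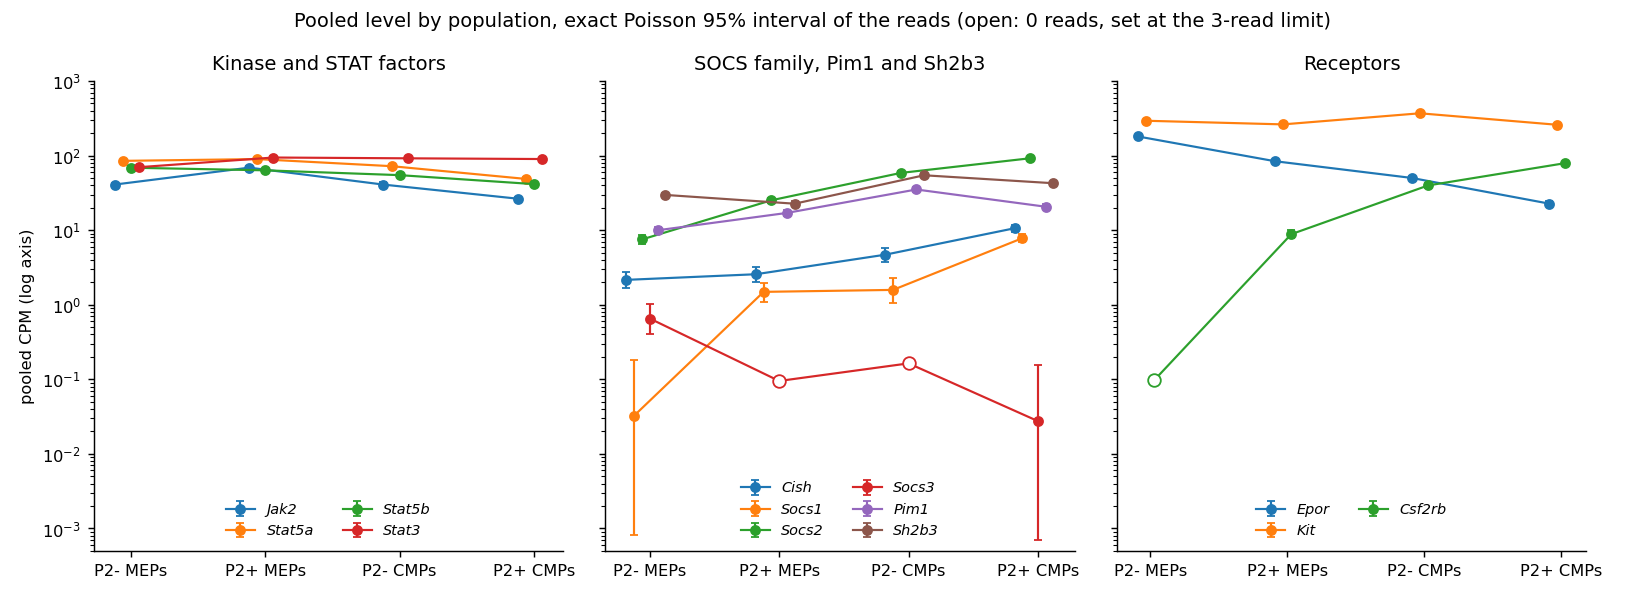
Points give the pooled CPM on a log axis with exact Poisson 95% intervals for the 10 genes and 3 receptors in each population, and open points mark 0 reads, set at the limit of 3 reads over the population. Jak2 and the STAT genes stay between 26.4 and 94.3 CPM, whereas Socs2 spans 7.51 to 92.1 CPM, and Epor spans 22.8 to 181 CPM.

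The genes were also counted against a limit of 2-fold. Of the 9 genes with a mean of at least 1 read per cell, Socs1 and Socs2 were higher in P2+ than in P2- MEPs and 0 were lower, while 15.3% of 11625 genes were higher and 6.59% lower. The median log2 ratio of the 9 was 0.43, and that of all genes 0.05. Socs1 met the minimum only through its reads in the P2+ CMPs. Its calls as higher in the P2+ CMPs, in the comparisons below, therefore come from the population that admitted it. Its calls against the P2- MEPs rest on the few reads given above. In CMPs, Cish and Socs1 were higher in P2+ cells and 0 genes were lower, against 9.82% and 9.36% of 11826 genes, with a median log2 ratio of -0.35 against -0.02 for all genes. Between P2- CMPs and P2- MEPs, Cish, Socs1, Socs2 and Pim1 were higher in CMPs and 0 were lower, where 22.6% of 11793 genes were higher and 9.34% lower. Between the P2+ populations, Cish, Socs1 and Socs2 were higher and Jak2 lower in CMPs, where 17% of 11841 genes were higher and 10.3% lower. The P2+ over P2- comparisons share no cells with each other, but each comparison of CMPs with MEPs shares its populations with them. The counts are small, no test was possible, and they are a description of these pools.

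**Figure D4:**
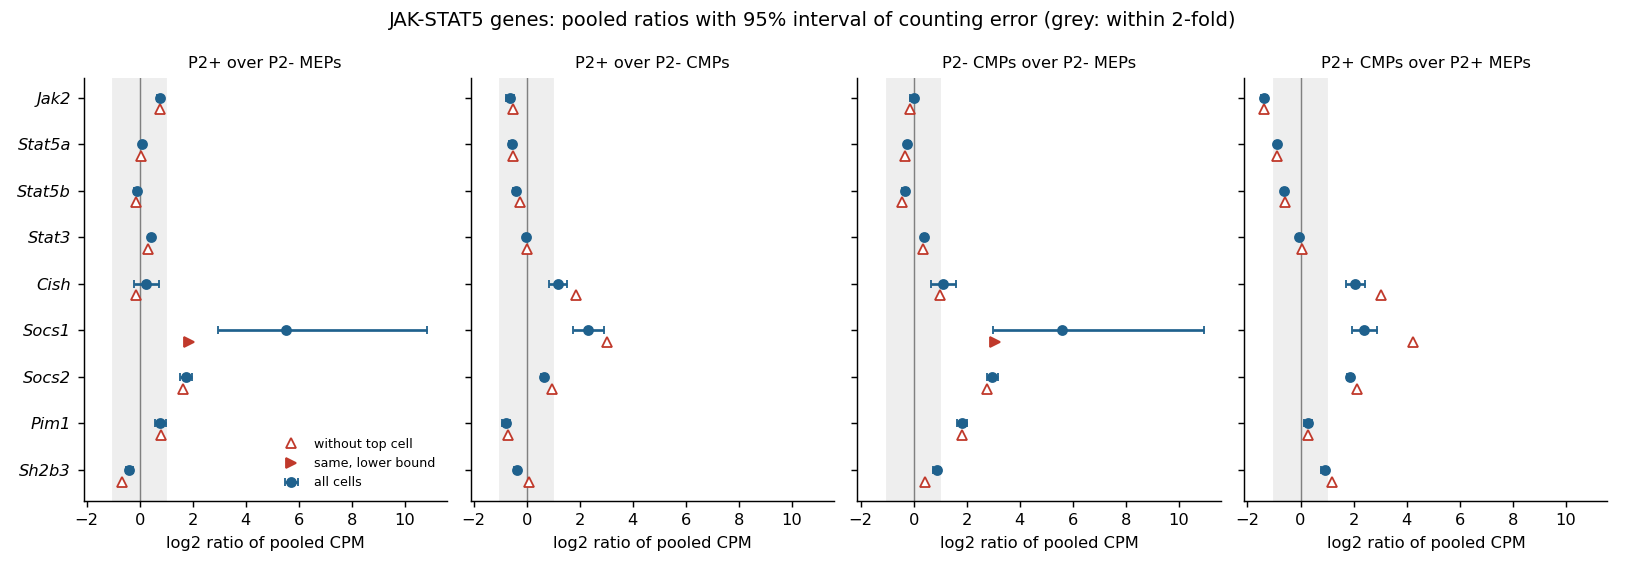
Filled points give the log2 ratio of pooled CPM for 9 genes in the 4 comparisons, with 95% intervals of counting error, and triangles the same without the cell of highest CPM of each population. Grey marks the range within 2-fold. The Socs1 interval in P2+ over P2- MEPs runs from 2.96 to 10.8, and Jak2 and Pim1 lie on opposite sides of 0 in the MEP and CMP panels.

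Upstream of the kinase, the transcripts of Epor and Csf2rb differed more between the populations than Jak2 did. Epor, the erythropoietin receptor, was lower in CMPs than in MEPs and lower in P2+ than in P2- cells, at 181, 84.1, 50.2 and 22.8 CPM. Epor reads were found in 55 of the 56 P2- MEPs, 33 of the 47 P2+ MEPs, 13 of the 27 P2- CMPs and 14 of the 42 P2+ CMPs. For Epor, P2+ MEPs were 2.15-fold below P2- MEPs (log2 ratio -1.10, interval -1.17 to -1.04). In CMPs the P2+ cells were 2.20-fold below the P2- cells (log2 ratio -1.14, interval -1.28 to -1.002). Csf2rb, the beta chain shared by the interleukin-3, interleukin-5 and GM-CSF receptors, was at 0, 8.84, 39.8 and 79.1 CPM. It was at least 90.2-fold higher in P2+ than in P2- MEPs, counting 3 reads over the population with 0, though its reads were in only 6 of the 47 P2+ MEPs and without the highest cells the log2 ratio was at least 5.13 in place of 6.49. Kit, a receptor tyrosine kinase and not a JAK-bound receptor, stayed within 2-fold in all 4 comparisons. The ligand genes Epo, Thpo, Il3, Csf2 and Il6 had 0 reads in all populations, which allows up to 0.0825 to 0.164 CPM at 3 reads per population.

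Among the other downstream genes the anti-apoptotic Bcl2l1, a known STAT5 target, was ordered like Socs2. It was at 10.5, 32.6, 44.997 and 89.9 CPM, with reads in 15 of 56, 24 of 47, 14 of 27 and 36 of 42 cells, and was 3.12-fold higher in P2+ than in P2- MEPs (log2 ratio 1.64, interval 1.46 to 1.83). Tfrc, the transferrin receptor and another known target, was ordered like Epor, at 260, 95.1, 49.2 and 23.1 CPM. Id1, a helix-loop-helix inhibitor, was higher in P2+ cells of both compartments, by 3.34-fold in MEPs and 2.29-fold in CMPs. The cell cycle inhibitor Cdkn1a was 8.57-fold higher in P2+ than in P2- MEPs and within 2-fold in CMPs (log2 ratio 0.47). Without the highest cells its CMP log2 ratio was 1.26. Most listed targets stayed within 2-fold. Of 13 other STAT5 or STAT3 targets with enough reads, 4 were higher, 1 lower and 8 within 2-fold in P2+ over P2- MEPs. In CMPs 2 were higher, 1 lower and 10 within. Of all genes, 15.3% were higher and 6.59% lower in MEPs, and 9.82% and 9.36% in CMPs.

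Of 75 further genes of the pathway, 60 had enough reads in the MEP comparison, and 15 were at least 2-fold higher and 2 at least 2-fold lower in the P2+ MEPs, with a median log2 ratio of 0.26, beside the 15.3% and 6.59% of all genes. Beside those already named, the higher genes were the kinase Jak3 (2.79-fold), the factor Stat4, the SUMO ligase Pias3, the phosphatase Ptprc (CD45), the adaptor Gab1, the receptors Il3ra, Il6ra, Ghr, Il2rg and Il4ra, and the anti-apoptotic Bcl2. Stat4 rested on 2 reads in the P2- MEPs against 87 in the P2+ MEPs (log2 ratio 5.40, interval 3.50 to 8.47), and without the highest cells the log2 ratio was at least 4.13. In the CMP comparison 11 of 63 were higher and 4 lower, with a median log2 ratio of 0.21, beside 9.82% and 9.36% of all genes. The higher ones were Socs6, Gab1, Sos2, Irs2, Csf2rb2, Il6ra, Ghr, Flt3, Osm, Pim2 and Id1, and the lower ones Epor, Tfrc, the interferon-induced protease Usp18 and Il6st, the shared chain of interleukin-6 type receptors (3.10-fold lower). Of the receptor genes with enough reads, 6 of 14 were higher and 1 lower in P2+ than in P2- MEPs, and 4 of 17 were higher and 2 lower in P2+ than in P2- CMPs, beside the same shares of all genes. In CMPs over MEPs, 8 of 16 were higher and 1 lower among P2- cells, where 22.6% and 9.34% of all genes were, and 7 of 17 were higher and 1 lower among P2+ cells, where 17% and 10.3% were. Il6ra and Ghr were higher in P2+ cells of both compartments at pooled levels of at most 8.91 CPM. Il6ra, Ghr and Csf2rb2 reached a mean of 1 read per cell only through the P2+ CMPs. Their calls as higher there, in all these counts, come from the population that admitted them. All Il6ra reads of the P2+ MEPs, and all Irs2 reads of the P2+ CMPs, came from 1 cell. From P2- MEPs to P2- CMPs, 25 of 62 were higher and 6 lower, where all genes gave 22.6% and 9.34%. From P2+ MEPs to P2+ CMPs, 20 of 63 were higher and 4 lower, where all genes gave 17% and 10.3%. No test was made of whether these shares differ from those of all genes.

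The feedback gene Socs2 and the receptor Epor had opposite orders over the populations. The ratio of Socs2 to Epor reads was 0.0416 (interval 0.0363 to 0.0475) in the P2- MEPs, 0.299 (0.276 to 0.324) in the P2+ MEPs, 1.17 (1.07 to 1.28) in the P2- CMPs and 4.04 (3.75 to 4.37) in the P2+ CMPs. Within cells the 2 genes did not exclude each other. Of the cells with Socs2 reads, 100%, 73.3%, 42.9% and 35.1% had Epor reads, and of all cells 98.2%, 70.2%, 48.1% and 33.3% did.

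Reads of several feedback genes met in 1 cell mainly in the P2+ CMPs, where Cish, Socs1 and Socs2 were each read most often. All 10 P2+ CMPs with Cish reads also had Socs2 reads, though Socs2 was read in 37 of these 42 cells, and Cish in 27.03% of those 37. In P2- MEPs 5 cells had Cish reads and 13 had Socs2 reads, and 0 had both. Of Cish, Socs1 and Socs2, exactly 2 were read in 0, 2, 2 and 10 cells and all 3 in 0, 0, 0 and 3 cells. With the survival kinase Pim1 added, at least 3 of the 4 were read in 0 of the 56 P2- MEPs, 0 of the 47 P2+ MEPs, 2 of the 27 P2- CMPs and 11 of the 42 P2+ CMPs, and none in 20, 13, 2 and 2 cells. Jak2, Stat5a and Stat5b were all read in 27 of the 56 P2- MEPs (48.2%), 21 of the 47 P2+ MEPs (44.7%), 8 of the 27 P2- CMPs (29.6%) and 11 of the 42 P2+ CMPs (26.2%). Whether these joint counts differ from those that the separate shares would give was not tested. No joint or exclusive expression is read from them. A cell without a read may hold the transcript below detection.

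**Figure D5:**
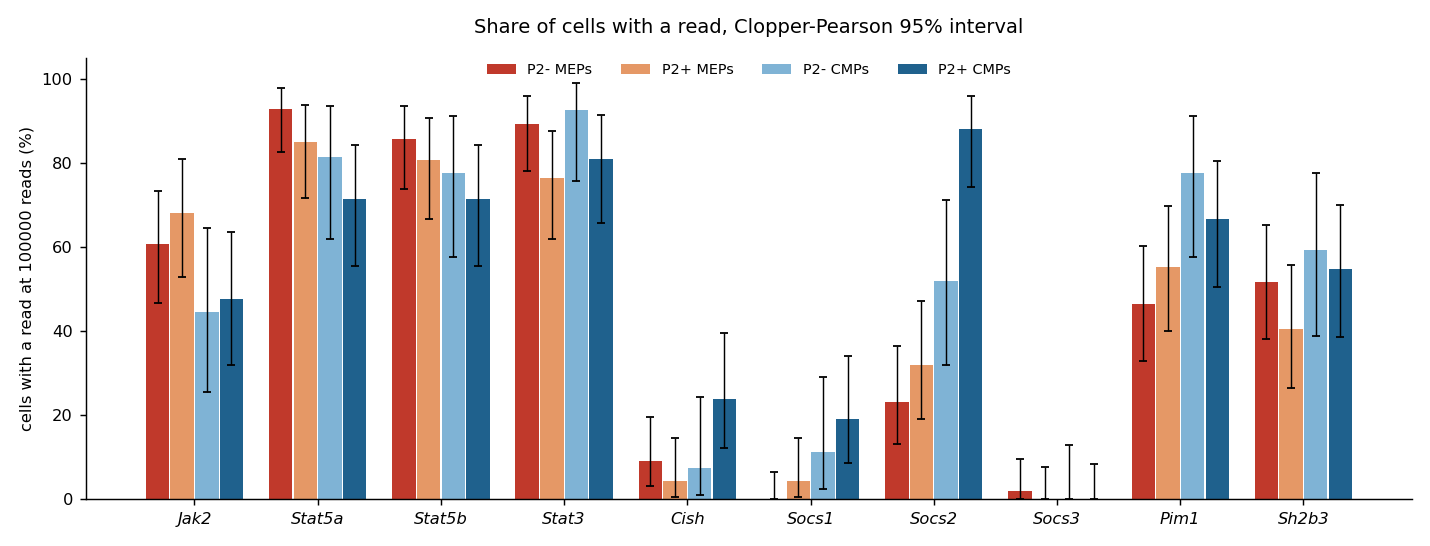
Bars give the percent of cells with at least 1 read after thinning to 100000 reads, for each gene and population, with Clopper-Pearson 95% intervals. Stat5a, Stat5b and Stat3 are read in 71.4% to 92.9% of cells, Socs2 in 23.2% to 88.1%, and Cish, Socs1 and Socs3 in at most 23.8%.

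Across the 172 cells the genes whose level was most like that of Socs2, by Spearman's rho on thinned reads over 8039 genes, were Adgrl4 (0.61), Lbp (0.60) and Ifitm1 (0.59). These values follow in part from the differences between the populations, since Adgrl4 was at 0, 4.402, 218.6 and 347.8 CPM. Within P2- CMPs rho was 0.52, 0.81 and 0.66 and within P2+ CMPs 0.20, 0.38 and 0.31. Within P2+ MEPs it was 0.085, 0.26 and 0.14, and within P2- MEPs it was -0.10 for both Lbp and Ifitm1, with no value for Adgrl4, which had 0 reads there. For Jak2, Stat5a, Stat5b, Stat3, Pim1 and Sh2b3 no gene exceeded 0.35, that of Stat5b with Pou2f1. Between members, 10 of 144 correlations within a population reached 0.3 in size, and cells share library preparation and depth, so no relation is read from them.

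Genes of other cell types differed between the populations beside the pathway. The summed level of 12 erythroid genes, Epor and Tfrc among them, was 2195, 1125, 865 and 469 CPM. That of 11 megakaryocyte genes was 99.8, 580.3, 376.9 and 411.6 CPM, and that of 12 granulocyte or monocyte genes 16.4, 72.2, 459 and 736 CPM. The 10 stem or multipotent genes summed to 21.1, 153, 919 and 1382 CPM, in the order of Socs2. They include Cd34, the gene of the gate between MEPs and CMPs, so the sort itself entered these sums. Of the 10, 3 had 0 reads in the P2- MEPs. The part of cell type in the differences of Socs2, Cish and Jak2 was not tested, and more cells with a transcript and more transcript per cell cannot be told apart in a pooled level. Macrophage genes summed to 1.27 to 10.2 CPM with Adgre1, C1qa, C1qb and C1qc at 0, lymphoid genes to 0 to 8.89 CPM, and hepatocyte genes to 10.7 to 24.9 CPM. The 8 mast cell or basophil genes summed to 2.03, 6.75, 97.6 and 41.3 CPM, in the order of Pim1, with 5 or 6 of them at 0 reads in each population, and their part in the Pim1 differences was not tested. Endothelial genes summed to 91.1, 109.2, 314.5 and 385 CPM.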

How the data were processed

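Each cell was its own modified Smart-Seq2 library. The authors trimmed reads with Trimmomatic 0.36, aligned them with STAR 2.4.2a to GRCm38 and ERCC sequences, and counted them with HTSeq 0.6.1p1 on GENCODE M12 exons regardless of strand. The deposited values are raw counts per gene and cell, beside a table by the authors with the percent of unmapped reads. Of uniquely mapped reads, 25.6% were ambiguous between genes and 7.40% fell on none, and both were left out. As in the study's methods, 3 cells with fewer than 250000 reads, over 25% unmapped reads or over 15% ERCC reads were removed. No cell had the counts of another, doublets were not called, and plates were not analysed here.

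Pooled ratios used no pseudocount, and a population at 0 was set to 3 reads, giving a bound. Comparisons took a mean count of 1 or more and a limit of 2-fold. Intervals were conditional binomial for ratios, exact Poisson for levels and Clopper-Pearson for shares (SciPy 1.17.1, Python 3.11.15), after a check on simulated data. As each population is 1 pool, no test was run. The 10 genes and all lists were chosen with earlier results of these data known. The text names the 10 genes, pathway genes past 2-fold in either P2+ over P2- comparison, Epor, Kit, Csf2rb, Jak1, Bcl2l1 and the 3 genes most like each gene read in 25% of cells, though not every such gene. Other genes of families and marker lists were named with their values known. A gene of the pathway and marker lists is not reported here and was left out of their counts and sums. Alternatives were DESeq2 1.42.0 size factors, edgeR 4.0.16 TMM factors, equally weighted cells, every deposited cell, leaving out the highest cell, totals without mitochondrial genes and Rn18s-rs5, leaving out the conflicting cell, no minimum count, and other thinning. Gene models are GENCODE vM21 on GRCm38, a later release than that counted. Promoters are RefSeq windows of GRCm38.p6.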

Additional observations from a re-analysis of the deposited data

Results flagged for a closer look

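Among the 10 genes, Jak2 and Pim1 differed in direction between the compartments with both intervals of counting error excluding 0, and Stat5a did so with a MEP value near 0. For Jak2 the P2+ over P2- log2 ratio was 0.75 in MEPs and -0.63 in CMPs, for Pim1 it was 0.77 and -0.77, and for Stat5a it was 0.0783 and -0.57. The MEP interval of Stat5a was 0.0010 to 0.16 and the median of all genes in that comparison was 0.054, so its MEP value was close to that of genes in general. Each compartment has 1 pool per population, so the difference between compartments was not tested. Without the cell of highest CPM of each population the values were 0.75 and -0.51 for Jak2, 0.82 and -0.71 for Pim1, and 0.06 and -0.52 for Stat5a. Without the P2- CMP of conflicting label, Jak2 was at -0.49 in CMPs.

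A P2+ MEP that was removed for 27.9% unmapped reads held 315322 reads on mouse genes, of which 48 fell on the 10 genes, 24 of them on Pim1. The other removed wells held 63 and 765 reads on mouse genes, with 1 and 0 reads on the 10 genes.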

How the results depend on the processing

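Of the counts of the 10 genes past 2-fold, that in P2+ over P2- CMPs was 2 (Cish and Socs1) and became 1 (Socs1) with DESeq2 size factors and 1 with equal weight for every cell, where the log2 ratio of Cish was 0.53 and 0.52. The number of genes read in at least 25% of P2+ MEPs was 7 and became 4 when at least 5 reads in a cell were required. The other counts of the 10 genes, and those of the other pathway genes past 2-fold, stayed within 1.5 times their value under the alternatives run. Over all genes, leaving out the highest cells took the number higher in P2+ over P2- CMPs from 1161 to 1769. The number lower in P2- CMPs over P2- MEPs went from 1101 to 1698. Of the recomputed log2 ratios of the 9 genes with enough reads, 84.9% stayed inside the interval of counting error over all alternatives. That share was 58.3% without the highest cells, 72.2% with DESeq2 size factors and 75% with equally weighted cells. It was 94.4% to 100% under the other scalings and cell sets. In all, 12 ratios changed sign, all of them from values under 0.5 in size. Among them was Sh2b3 in P2+ over P2- CMPs, at 0.01 with DESeq2 size factors and 0.08 without the highest cells. DESeq2 size factors shifted the median of all genes by -0.11 in P2+ CMPs over P2+ MEPs, and TMM factors by -0.10 in P2- CMPs over P2- MEPs. Without the highest cells, 64.1% of all calls in P2+ over P2- CMPs were higher against 51.2%, and 57.1% against 70.8% in P2- CMPs over P2- MEPs. The cause of these changes was not tested. No paired analysis was possible because every population is 1 pool of cells. Reads of Cish, Socs1 and Socs3 came from few cells at each depth, with Cish in 21.4% of P2+ CMPs at 50000 reads and 28.6% without thinning, and Socs1 in 19.05% and 23.8%. The number of cells limits the precision of these shares.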
